A study of Mus musculus with 12 samples.

Results

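The genes described here are 10 markers and polarization genes of macrophages: the growth factor Csf1 and its receptor Csf1r, the lineage markers Cd68 and Cd14, the endocytic receptors Mrc1, Cd163 and Msr1, and the activation genes Arg1, Nos2 and Chil3. They were taken by name from the array annotation, where Chil3 stands under its older symbol Chi3l3, and not by their values. The 10 genes were read by 14 of the 41174 gene probes on the array, and all 10 were among the 20402 genes tested. The samples were 8 mammary tumors of mice labelled ShcA-null, and each was hybridised together with 1 pooled reference, labelled as NIC tumors, on Agilent two-colour whole-genome arrays. ShcA, the product of Shc1, is an adaptor that couples receptor tyrosine kinases to Ras signalling. In the NIC model an activated Neu (ErbB2) receptor and Cre recombinase are made from 1 transcript under the mouse mammary tumor virus promoter, so that Cre acts in the mammary epithelium that carries the oncogene. Both kinds of tumor carry the Neu transgene per the series' design text, while the sources used here give no age, strain or number of tumors in the pool.

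Macrophages develop and survive through CSF1 acting on its receptor CSF1R, and mammary tumors often hold many of them. Interferon-gamma and bacterial products drive a classical, inflammatory state, of which nitric oxide synthase (Nos2) is a marker in the mouse, while IL-4 and IL-13 acting through STAT6 drive an alternative state with Arg1, Mrc1 and Chil3 as markers. Arg1 and Nos2 both use arginine, which arginase splits into ornithine and urea and nitric oxide synthase turns into nitric oxide and citrulline. Chil3, also called Ym1, encodes a secreted chitinase-like lectin.

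Every value below is a log2 ratio of tumor over pool on 1 array, or its mean over tumors, so that 1 stands for a level doubled against the pool. There were 12 arrays: a first array of each of the 8 tumors, with the tumor RNA in Cy5, and 4 arrays with swapped dyes labelled tumors 1 to 4. The labels do not say that the tumors came from separate animals, so the spread behind the p-values may be technical, and the pool counted as 1 control whose own spread is in no test. In bulk tumor RNA a difference in the number of macrophages and a difference in RNA per macrophage cannot be told apart.

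Some libraries stood apart or went against their labels. The swapped array labelled tumor 2 correlated with the first array of tumor 3 (r = 0.817 across probes) and less with that of tumor 2 (r = 0.142). The swapped arrays labelled tumors 3 and 4 likewise matched the first arrays of tumors 4 (r = 0.392) and 8 (r = 0.681) better than their own (r = 0.134 and 0.294). Values are therefore shown by array, and the averages of tumors 2 to 4 may mix tumors, so that the 8 averages may not be independent. Shc1, the gene named in the label, had a mean log2 ratio of 0.12 ± 0.65 (SD, n = 8, limma adjusted p = 0.729). It was at -2.05 on the first array of tumor 3 and at -2.22 on the swapped array labelled tumor 2, against -0.03 to 0.74 on the other 10 arrays, so that the label was borne out by Shc1 RNA on these arrays only. Which part of Shc1 was deleted is not stated, and a probe outside it checks nothing. Of 12 mammary epithelial markers, 11 were above background in the tumor RNA on all 12 arrays, as were 35 of 37 macrophage and monocyte markers other than the 10 genes. On the first arrays of tumors 6 and 7, probes towards the 5′ end of a gene read lower than probes towards its 3′ end.

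The sequences in which the results are read are shown first. Chil3 is the gene of the 10 that differed from the pool, and Chil4 (Ym2) is its close paralogue. The first 30 of the 60 bases of their probes were as follows, 5′ to 3′, from the array annotation.
Chil3 probe A_51_P167292: tgaacatcttttgcttcctgtaaaaccacc
Chil4 probe A_52_P428599: aaatagtcccctctataaatctccatatga
The Chil3 probe lies at chr3:105965855-105965914 and the Chil4 probe at chr3:106022134-106022413 (mm7, minus strand). The file also lists the Chil3 transcript NM_009892 for the Chil4 probe, so the Chil4 value cannot be told apart from Chil3. Msr1 had 3 probes, which are shown because their values differed. They run from 5′ to 3′ along the gene at chr8:38414609-38414668, chr8:38396605-38398766 and chr8:38394471-38394530 (mm7, minus strand), and the first 30 of 60 bases of each are printed.
Msr1 probe A_52_P127130: gacactgcttgatgttcaactccatacaga
Msr1 probe A_51_P404846: gtgtaggcggatcaagatcagtataactcc
Msr1 probe A_52_P607128: aagtcatcttacatccaaaactacacgtat
No annotation of build mm7 was used here, so exon and UTR positions of the probes are not given.

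The 250 bases before the transcription start were found for 5 of the 10 genes (Csf1, Cd68, Mrc1, Cd163 and Chil3; RefSeq, GRCm38.p6). Those of Chil3 and Chil4 are printed because the pair shares a stretch of promoter, and that of Mrc1 because its ratio followed that of Chil3 across tumors. Capitals mark matches to the letters GAGGAA (the core of a PU.1-type Ets site) or TTGCNNAA (C/EBP-type) on either strand.
Chil3, chr3:106167565-106167814, minus strand: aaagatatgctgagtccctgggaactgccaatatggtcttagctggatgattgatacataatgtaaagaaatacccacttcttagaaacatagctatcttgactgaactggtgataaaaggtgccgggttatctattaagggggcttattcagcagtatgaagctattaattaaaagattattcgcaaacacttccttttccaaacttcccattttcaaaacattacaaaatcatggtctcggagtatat
Chil4, chr3:106219480-106219729, minus strand: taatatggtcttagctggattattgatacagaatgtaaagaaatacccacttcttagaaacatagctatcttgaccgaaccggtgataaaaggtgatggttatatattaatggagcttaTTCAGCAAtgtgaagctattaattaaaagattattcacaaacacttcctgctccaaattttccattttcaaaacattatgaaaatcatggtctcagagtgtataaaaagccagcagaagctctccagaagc
Mrc1, chr2:14229164-14229413, plus strand: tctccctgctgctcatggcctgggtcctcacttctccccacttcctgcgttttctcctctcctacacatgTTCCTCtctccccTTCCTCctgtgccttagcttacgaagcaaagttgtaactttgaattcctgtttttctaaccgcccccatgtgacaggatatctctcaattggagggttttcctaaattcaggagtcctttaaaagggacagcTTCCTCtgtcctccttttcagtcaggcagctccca
In a global alignment, 201 of 221 aligned bases (91.0%) of the Chil3 and Chil4 windows were identical. The STAT6-type palindrome was in 5.85% of all 32851 windows of this length and in 0 of the 5 windows of the 10 genes. GAGGAA was in 23.3% of all windows, once in Cd68 and at 3 places in Mrc1 (on the opposite strand, from 180, 167 and 35 bases before the start). TTGCNNAA was in 9.56% of all windows and, of the 10 genes, in Cd68, and it was also in Chil4. The Chil3 window held no match to these letters. These matches are descriptions of the letters and say nothing of binding.

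Among the 10 genes, 1 was called higher than the pool and 0 lower over the 8 tumors (limma, Benjamini-Hochberg adjusted p under 0.05 over all 30838 kept probes). The gene was Chil3. Over all genes tested, 15.9% were called, 6.09% higher and 9.84% lower, so that 1 of 10 is a share near the background. A fit of the separate arrays with dye as a term, in which best-matching arrays formed blocks, called the same 1 of the 10, against 6.3% of all genes (2.81% higher and 3.49% lower). At an unadjusted p under 0.05, 2 of the 10 genes, Chil3 and Cd68, passed, against 32.5% of all genes. The median of the 10 mean log2 ratios was 0.23, against -0.02 over all genes, and 8 of the 10 means lay above 0. Under median centring, which moved the median of all genes from -0.02 to 0.16, Cd68 was called as well (0.68, limma adjusted p = 0.0317), and the means of Arg1, Cd163 and Nos2 changed sign to 0.06, 0.16 and -0.13. The genes differed in their spread between tumors. The SD of Arg1 over the first arrays (1.58) exceeded that of 98.5% of all genes, and those of Cd14 (98.0%), Msr1 (96.8%) and Mrc1 (94.7%) were also in the upper range. Cd163 (86.8%), Csf1r (72.5%) and Csf1 (64.0%) followed. Chil3 (55.6%) and Cd68 (58.4%) lay near the middle, and Nos2 (2.64%) lay near the bottom.

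**Figure D1:**
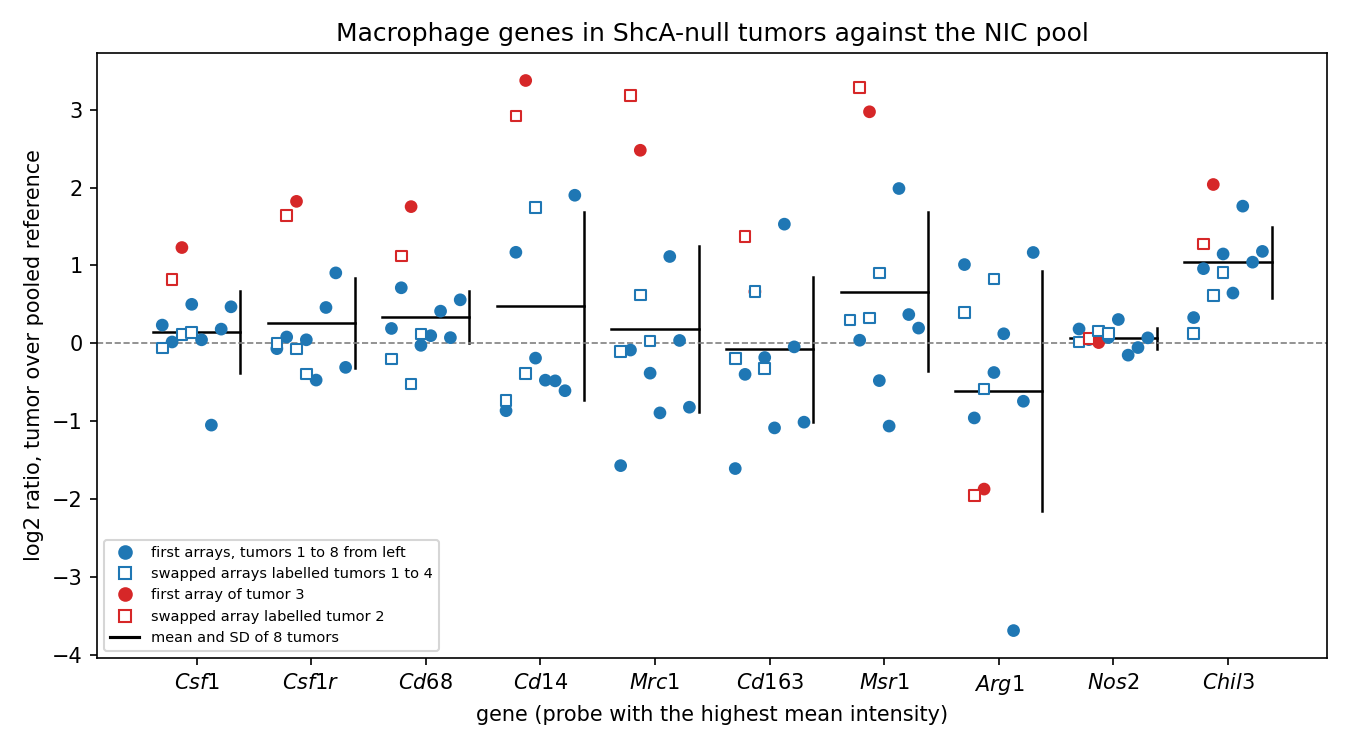
Log2 ratio of tumor over pool (vertical axis) of the 10 genes on the 12 arrays; circles are first arrays of tumors 1 to 8 from left to right, squares are swapped arrays labelled tumors 1 to 4, and black lines are the mean and SD of 8 tumors. Chil3 lies above 0 on all 12 arrays, and the arrays drawn in red (first array of tumor 3, swapped array labelled tumor 2) lie at the top for most genes and low for Arg1.

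Csf1, the growth factor of the lineage, did not pass the test. On the first arrays its log2 ratio had a lowest value of -1.05 in tumor 6, a median of 0.21 and a highest value of 1.23 in tumor 3. Tumor 6 stood alone below the pool, and the other 7 tumors lay at or above it. The mean was 0.14 ± 0.52 (SD, n = 8), with a limma adjusted p of 0.604. Csf1 was spotted 10 times on each array, and the SD between these spots was 0.02 to 0.09, far under the SD between tumors. Without tumors 6 and 7 the mean was 0.34 and Csf1 was called (limma adjusted p = 0.0452), an alternative chosen after seeing the data. Without the 2 arrays that stood apart it was 0.03. The 5′ to 3′ measure of these tumors is given further on, and its part in the Csf1 value was not tested.

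Csf1r, the tyrosine kinase receptor of CSF1, did not pass the test either. Its brightest probe (A_51_P365885) ran from -0.47 in tumor 5 through a median of 0.06 to 1.82 in tumor 3. Tumor 3 stood highest, tumors 6 (0.46) and 7 (0.90) lay above the pool, and the others lay within 0.5 of 0. The mean was 0.27 ± 0.58 (SD, n = 8, limma adjusted p = 0.371), and 0.05 without the 2 arrays that stood apart. The same pooled RNA, read as a channel level on 12 arrays, had an SD of 0.14 at this probe, against 0.80 for the tumor RNA. A second probe (A_52_P602091) that lies further 5′ had a mean of -0.19 ± 1.04 (SD, n = 8, limma adjusted p = 0.719). The third (A_52_P570471), the most 5′ of the set, was dim and above background in the tumor RNA on 5 of 12 arrays, with a mean of -0.11 ± 0.25 (SD, n = 7).

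Cd68, an endosomal glycoprotein of macrophages, lay slightly above the pool on most first arrays. On the first arrays it ran from -0.02 in tumor 4 through a median of 0.30 to 1.75 in tumor 3. Tumor 3 was separated from the other 7, which lay between -0.02 and 0.71. On the swapped arrays it read -0.20, 1.12, -0.52 and 0.12 for the labels of tumors 1 to 4. Their mean was 0.13, against 0.47 on the first arrays. The mean of the tumor averages was 0.34 ± 0.34 (SD, n = 8), higher than the pool in 7 of 8, at an exact sign-flip p of 0.0156. That test takes the 8 averages as independent, which the matches of the swapped arrays leave in doubt. The average of label 3 joined 1.75 with -0.52. The limma adjusted p of Cd68 was 0.102. Without the first array of tumor 3 and the swapped array labelled tumor 2, an alternative chosen after seeing the data, the mean was 0.17 (limma adjusted p = 0.445).

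Cd14, the co-receptor that hands lipopolysaccharide to Toll-like receptor 4, differed widely between tumors. The lowest first array was -0.86 in tumor 1, the median was -0.33 and the highest was 3.37 in tumor 3, an 18.8-fold range. Tumors 2 (1.17), 3 and 8 (1.90) lay above the pool and the other 5 below it. The swapped arrays labelled tumors 2 (2.92) and 4 (1.74) were also high, in the order of the first arrays of tumors 3 and 8 that they matched. The mean of 0.48 ± 1.21 (SD, n = 8) was within this spread of 0 (limma adjusted p = 0.406). It was 0.26 without tumor 2, 0.28 without tumor 8 and 0.14 without the 2 arrays that stood apart. The pool's own level at this probe had an SD of 0.30 over 12 arrays, against 1.62 for the tumor RNA.

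Mrc1, the mannose receptor CD206, ran from -1.57 in tumor 1 through a median of -0.23 to 2.48 in tumor 3, a 16.5-fold range. Tumors 3 and 6 (1.12) lay above the pool by more than 1, tumor 7 (0.04) and tumor 2 (-0.08) lay at it, and the others lay below. The mean was 0.19 ± 1.06 (SD, n = 8, limma adjusted p = 0.724). Without the 2 arrays that stood apart the mean was -0.13.

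Cd163, the scavenger receptor for haptoglobin-haemoglobin complexes, ran from -1.60 in tumor 1 through a median of -0.29 to 1.53 in tumor 6. Tumors 3 (0.66) and 6 lay above the pool, tumor 7 (-0.04) at it and the other 5 below it. The mean was -0.08 ± 0.93 (SD, n = 8, limma adjusted p = 0.881), and its sign changed with the arrays used. At this probe the pool level had an SD of 0.46 over 12 arrays, against 1.10 for the tumor RNA.

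Msr1, the class A scavenger receptor that takes up modified lipoproteins, had 3 kept probes. The brightest (A_52_P607128) ran from -1.06 in tumor 5 through a median of 0.20 to 2.97 in tumor 3, and tumor 6 was the next highest at 1.99. Its spot on the first array of tumor 1 was an outlier and was left out, so that this tumor entered through its swapped array (0.30). The mean was 0.67 ± 1.02 (SD, n = 8, limma adjusted p = 0.189), and 0.30 without the 2 arrays that stood apart. The probe in the middle (A_51_P404846) had a mean of 0.61 ± 0.40 (SD) over the 7 tumors with a value, was above the pool in all 7 and passed the test (limma adjusted p = 0.0320). The most 5′ probe (A_52_P127130) had a mean of 0.22 ± 1.14 (SD, n = 8, limma adjusted p = 0.704). The call for Msr1 thus depended on the probe, and the gene counts as not called by its brightest one.

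Arg1, an arginase used as a marker of alternatively activated macrophages, had the widest range of the 10 genes, 28.8-fold over the first arrays. Its probe was the brightest of the 10 genes (mean log2 intensity 15.7, against 13.5 for Cd14, the next). Which cells made this RNA was not tested. Arg1 ran from -3.68 in tumor 6 through a median of -0.56 to 1.17 in tumor 8. Tumors 1 (1.01) and 8 lay above the pool by 1 or more, tumor 5 (0.12) at it, and tumors 6 and 3 (-1.87) furthest below. The positions of the other tumors depended on the normalization. Under median centring the first arrays of tumors 2, 4, 5 and 7 read 0.44, 0.78, 1.10 and 0.40. In the deposited value table tumor 5 read -0.61. Tumors 6 (-2.10) and 3 (-1.48) stayed lowest under median centring. The mean was -0.61 ± 1.54 (SD, n = 8), with 4 of 8 tumors above the pool and a limma adjusted p of 0.407. It was -0.17 without tumor 6 and -0.08 without tumors 6 and 7. The swapped array labelled tumor 2 read -1.95, close to the first array of tumor 3, and that labelled tumor 4 read 0.83, close to that of tumor 8. Arg1 was the 1 gene of the 10 that was low on both arrays that stood apart. At its probe the pool level had an SD of 0.42 over 12 arrays, against 1.13 for the tumor RNA.

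Nos2, the inducible nitric oxide synthase of classical activation, was near background. It was above background on 6 of 12 arrays in the tumor RNA and on 6 of 12 in the pool. Its ratios lay between -0.15 and 0.31 on the first arrays, with a median of 0.06. The mean was 0.07 ± 0.13 (SD, n = 8, limma adjusted p = 0.632), over 10 spots per array. A difference in Nos2 was not detectable at this signal, and the narrow range is that of a dim probe.

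Chil3 was the gene that rose. On the first arrays its log2 ratio ran from 0.33 in tumor 1 through a median of 1.10 to 2.04 in tumor 3, and on the swapped arrays it was 0.13, 1.28, 0.62 and 0.91 for the labels of tumors 1 to 4. It was above the pool on all 12 arrays, which held for 1.88% of all genes tested, and in 8 of 8 tumors, which held for 4.85%. The mean was 1.04 ± 0.45 (SD, n = 8), a 2.06-fold level, with a limma adjusted p of 0.00418. Its exact sign-flip p of 0.00781 is the smallest that 8 tumors can give, and takes as independent 8 averages that may share tumors. Tumor 1 was lowest on both of its arrays, and tumors 3 and 6 (1.76) were highest. At this probe the pool level had an SD of 0.42 over 12 arrays, against 0.64 for the tumor RNA. On the first array of tumor 3 the pool was at its lowest level (8.68). The tumor RNA there was at 10.72, under that of tumor 6 (11.77). The order of the tumors in the ratio thus carries the spread of the pool channel as well. The value did not rest on the arrays that stood apart: without them the mean was 0.93 (limma adjusted p = 0.00653), and without tumors 6 and 7 it was 0.92 (limma adjusted p = 0.00523). Within the slide of tumors 1 to 4 the mean of the first arrays was 1.12, and within that of tumors 5 to 8 it was 1.16 (limma adjusted p = 0.0826 and 0.101, 4 tumors each). When all 12 arrays were fitted with dye as a term and with best-matching tumors as blocks, it was 0.92 (limma adjusted p = 0.0186). The authors' deposited value table gave a mean of 1.11 for the same probe. The probe was above background in both RNAs on all 12 arrays.

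The 5′ to 3′ position of a probe mattered in tumors 6 and 7. Over 4334 to 5426 genes with kept probes at least 1000 bases apart, a measure added after seeing the data, the 5′ probe minus the 3′ probe had a median log2 difference of -0.86 in tumor 6 and -0.68 in tumor 7. On the other 10 arrays the median lay between -0.15 and 0.35. The share of genes with a difference below -1 was 46.2% and 40.6% in these tumors, against 1.18% to 10.7% elsewhere. The brighter probes of Csf1r and the probes of Msr1 also read lower towards the 5′ end in these tumors. At Csf1r the more 5′ probe read -2.04 and -1.52 in tumors 6 and 7, where the 3′ probe read 0.46 and 0.90. In the other 6 tumors this 5′ probe read between 0.04 and 1.60. At Msr1 the probes from 5′ to 3′ read -2.06, 0.62 and 1.99 in tumor 6, and -0.33, 0.29 and 0.37 in tumor 7. The tumor RNA was not above background at the most 5′ Msr1 probe in tumor 6, so that -2.06 is a bound. The dim, most 5′ Csf1r probe read -0.13 in tumor 6, with neither RNA above background, and had no value in tumor 7. The genes with a single probe, Arg1 and Csf1 among them, allow no such comparison, and the part of probe position in their tumor 6 values was not tested.

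**Figure D2:**
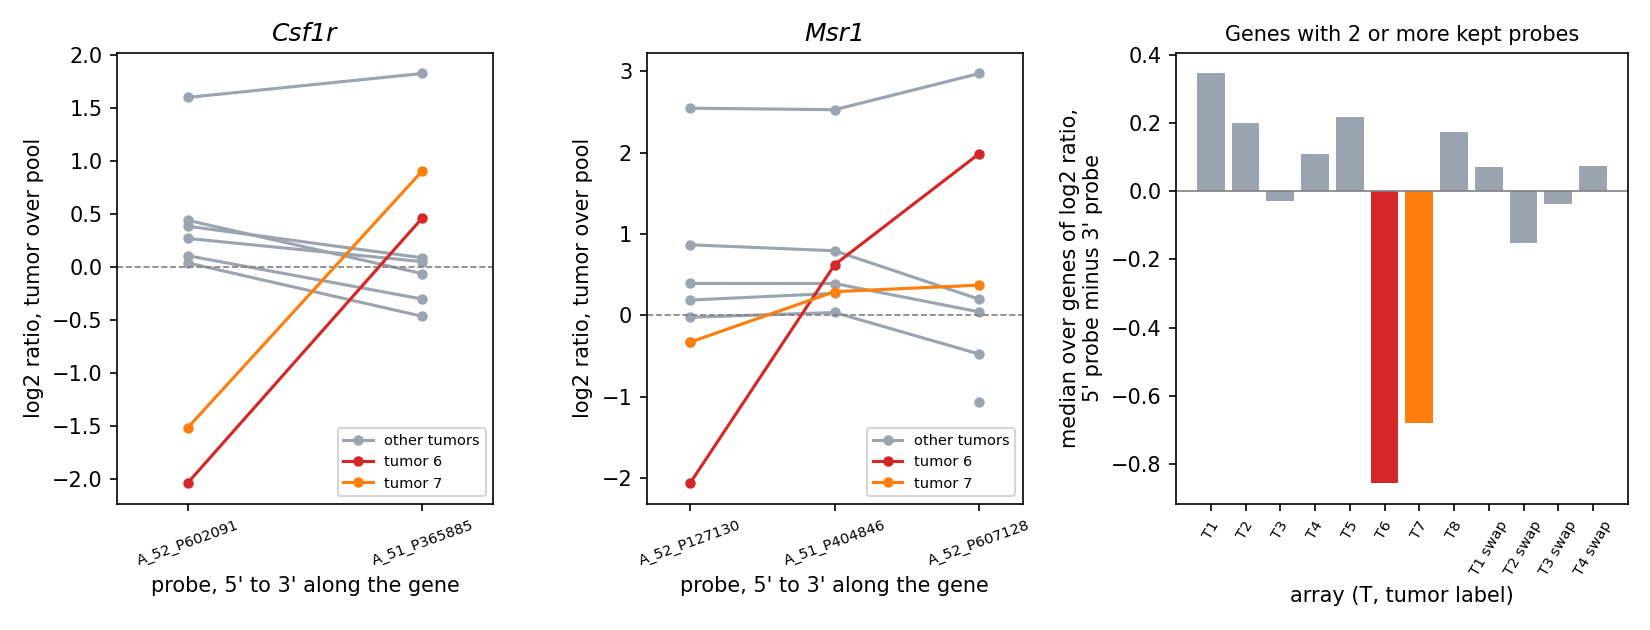
Left and middle, log2 ratio (vertical axis) of the kept Csf1r probes above background on all arrays and of the 3 Msr1 probes, ordered from 5′ to 3′, with 1 line per tumor on its first array; a point is missing where a spot was an outlier, and the 5′ Msr1 point of tumor 6 is not above background in the tumor RNA. Right, the median over genes of the 5′ minus the 3′ log2 ratio on each array; tumor 6 (-0.86) and tumor 7 (-0.68) lie below the other arrays.

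Some pairs of the 10 genes were correlated across tumors. Over the first arrays, 30 of the 45 pairs of genes had a positive Pearson correlation, with a median r of 0.44. After Benjamini-Hochberg adjustment over the 45 pairs, 8 had an exact permutation p under 0.05 for Pearson's r and 0 for Spearman's rho, for which the lowest adjusted p was 0.0513 (17 passed unadjusted). All points share the pooled RNA, and each array gives both values of a pair. The same counts were not made for pairs of other genes, so they cannot be called particular to the 10 genes. The slides hold 4 first arrays each, too few for a value within a slide. Without tumor 3 the median r was -0.06, so that much of the joint level rested on that tumor. Among pairs of the endocytic receptors and Chil3, Mrc1 and Cd163 had r = 0.853 and rho = 0.952 (exact permutation p adjusted over the pairs 0.0466 and 0.0513). Their r was 0.978 without tumor 3, 0.935 without tumors 6 and 7, and 0.957 without the 2 tumors farthest from the median of Mrc1. Mrc1 and Chil3 had r = 0.931 and rho = 0.786 (adjusted exact permutation p = 0.0257 and 0.0898), and r was 0.888 without tumor 3 and 0.743 without the 2 farthest tumors. Msr1 went with Chil3 (r = 0.963, rho = 0.821, n = 7, adjusted exact permutation p = 0.0379 and 0.0960), with r = 0.702 without the 2 farthest tumors. Mrc1 and Msr1 had r = 0.952 and rho = 0.893 (n = 7, adjusted exact permutation p = 0.0379 and 0.0769), but r = 0.593 without the 2 farthest tumors. Cd163 and Msr1 did not pass (r = 0.806, rho = 0.821, n = 7, adjusted exact permutation p = 0.112 and 0.0960), and r was 0.449 without the 2 tumors farthest from the median of Msr1. Cd163 and Chil3 had r = 0.871 and rho = 0.810 (adjusted exact permutation p = 0.0439 and 0.0824). The receptor Csf1r also went with Mrc1 (r = 0.873, rho = 0.905, adjusted exact permutation p = 0.0484 and 0.0652), with r = 0.776 without the 2 tumors farthest from the median of Csf1r and 0.647 without tumor 3.

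Arg1 was negatively correlated with Cd163. The pair had r = -0.958 and rho = -0.857 over the 8 first arrays (adjusted exact permutation p = 0.0257 and 0.0769). Their r was -0.887 without the 2 tumors farthest from the median of Cd163, -0.955 without tumor 3 and -0.911 without tumors 6 and 7. Tumors 1 and 8, with the highest Arg1, had Cd163 at -1.60 and -1.01, and tumors 6 and 3, with the lowest Arg1, had Cd163 at 1.53 and 0.66. Arg1 and Mrc1 had r = -0.795 and rho = -0.881, which did not pass after adjustment (exact permutation p = 0.0831 and 0.0652). Arg1 and Msr1 had r = -0.707 and rho = -0.679 (n = 7, adjusted exact permutation p = 0.170 and 0.259), and r was -0.093 without the 2 tumors farthest from the median of Msr1. Arg1 and Chil3, both used as markers of alternative activation, had r = -0.746 and rho = -0.524 (adjusted exact permutation p = 0.112 and 0.385). Nos2, though near background, was also negative with Cd163 (r = -0.832, rho = -0.881, adjusted exact permutation p = 0.0573 and 0.0652). With Mrc1 it had r = -0.633 and rho = -0.881 (adjusted exact permutation p = 0.177 and 0.0652). A probe with little signal thus gave rank correlations as negative as those of Arg1 with these receptors.

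Cd68 and Cd14 formed a further pair, with r = 0.905 and rho = 0.619 (adjusted exact permutation p = 0.0439 and 0.259). Without the 2 tumors farthest from the median of Cd68, r was 0.678. Csf1 had r = 0.38 with its receptor Csf1r over all 8 tumors, -0.35 without tumor 3 and 0.87 without tumors 6 and 7, so that this relation rested on single tumors.

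**Figure D3:**
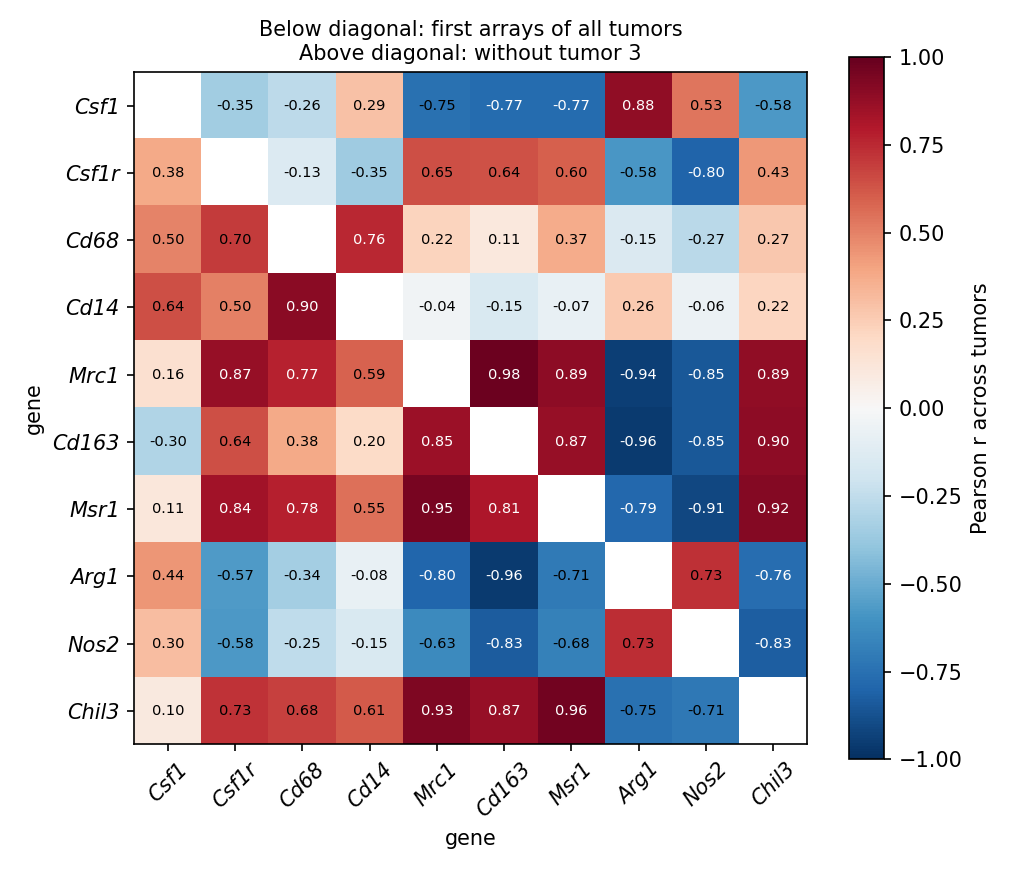
Pearson r between the log2 ratios of 2 genes across the first arrays (colour scale from -1 to 1), below the diagonal for all tumors and above it without tumor 3. Mrc1, Cd163, Msr1 and Chil3 are positive with each other on both sides and negative with Arg1 and with the dim Nos2. Most correlations of Csf1 change sign.

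Genes related to the 10 by role were taken from lists. Among 37 other macrophage and monocyte markers, 6 were called higher and 2 lower, and the median of the list was 0.23. Over all genes tested, 6.09% were called higher and 9.84% lower. The beta chains of the GM-CSF and IL-3 receptors rose, Csf2rb2 by 1.14 ± 0.63 and Csf2rb by 0.75 ± 0.57 (SD, n = 8, limma adjusted p = 0.00821 and 0.0276), while the GM-CSF receptor alpha chain Csf2ra was at -0.13 ± 0.42 (n = 8, limma adjusted p = 0.576). Irf8, a transcription factor of the myeloid lineage, rose by 0.75 ± 0.55 and Cybb, the catalytic subunit of the phagocyte oxidase, by 0.70 ± 0.57 (SD, n = 8, limma adjusted p = 0.0259 and 0.0362). Hmox1, the haem oxygenase that macrophages use after uptake of haemoglobin, fell by 1.42 on the log2 scale (SD 0.32, n = 8, limma adjusted p = 4.92e-04), and was below the pool in all 8 tumors. Cx3cr1, the fractalkine receptor, fell by 1.06 (SD 0.60, n = 8, limma adjusted p = 0.00915). In the fit that adds dye as a term and blocks best-matching arrays, 4 of these 37 were called higher and 1 lower, and Cx3cr1 was not among them, at a mean of -1.09 (limma adjusted p = 0.0618). Under median centring Hmox1 was not called (limma adjusted p = 0.0542).

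The other ligands, receptors and signalling genes around CSF1 receptor numbered 12, of which 2 were called higher (the same Csf2rb and Csf2rb2) and 1 lower. Over all genes tested, the shares were 6.09% and 9.84%. The gene called lower was Grb2, the adaptor that binds phosphorylated receptors and ShcA, at -0.52 ± 0.35 (SD, n = 8, limma adjusted p = 0.0280). Its mean was -0.11 under median centring, where it was not called.

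Of 25 genes of classical activation, 11 were called higher and 0 lower, and their median was 0.57. Over all genes 6.09% were called higher and 9.84% lower. The cells that made these RNAs were not told apart in bulk tumor RNA. The largest were the interferon-induced chemokines Cxcl9 (1.95 ± 0.72), Cxcl10 (1.86 ± 0.37) and Cxcl11 (1.16 ± 0.68) and the cytokine Il1b (1.44 ± 0.73; SD, n = 8, limma adjusted p = 0.00173, 2.56e-04, 0.00931 and 0.00550). Il1b was highest on the first array of tumor 3 (3.82), whereas Cxcl9 and Cxcl10 were not (1.53 and 1.12). In the fit with a dye term, 7 of the 25 were called higher, against 2.81% of all genes. Of 25 genes of alternative activation, 4 were called higher and 1 lower, with a median of 0.37. Chil4 (0.74 ± 0.48), the transglutaminase Tgm2 (0.73 ± 0.24), the cytokine signalling inhibitor Socs1 (0.50 ± 0.27) and the checkpoint ligand Pdcd1lg2 (0.46 ± 0.37) were called higher (SD, n = 8, limma adjusted p = 0.0173, 0.00357, 0.0185 and 0.0494). The Chil4 probe also lists the Chil3 transcript, so its value may repeat that of Chil3. Kdm6b, a histone H3 lysine demethylase, fell by 1.40 (SD 0.89, n = 8, limma adjusted p = 0.0121). In the fit with a dye term, 0 of these 25 were called higher and 1 lower, against 2.81% and 3.49% of all genes.

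In arginine metabolism, beside Arg1 and Nos2, 0 of 12 genes were called in either direction (median 0.21), and in the scavenger receptors beside Msr1 and Cd163 0 of 14 were called (median 0.27). For these lists and those that follow, the shares over all genes were 6.09% higher and 9.84% lower. Of 15 genes of the CD14 and Toll-like receptor 4 pathway, 2 were called higher: Lbp, the protein that carries lipopolysaccharide to CD14 (1.22 ± 0.71), and Tlr1 (0.82 ± 0.68; SD, n = 8, limma adjusted p = 0.00950 and 0.0350). Of 9 tested genes of the mannose receptor family and the macrophage lectins, 2 were called higher: Ly75, the DEC-205 receptor (1.30 ± 0.68), and Clec4e, which binds mycobacterial cord factor (0.94 ± 0.59; SD, n = 8, limma adjusted p = 0.00639 and 0.0137). Clec4e was not called in the fit with a dye term (limma adjusted p = 0.0790). Of 6 chitinase-like genes other than Chil3, 3 were called higher: Chil1 (1.19 ± 1.10, n = 8), Chil4 and Ctbs (0.47 ± 0.12, n = 6; SD, limma adjusted p = 0.0452 and 0.0261 for Chil1 and Ctbs). The Chil4 value cannot be told apart from Chil3 and may repeat it. In the fit with a dye term none of these 6 was called, against 6.3% of all genes, and Chil1 was at 0.26. Of 12 factors that attract monocytes, 1 was called higher, the chemokine Ccl2 (0.69 ± 0.44, SD, n = 8, limma adjusted p = 0.0181).

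Markers of some other cell types moved with the macrophage genes on the arrays that stood apart. On the first array of tumor 3, 7 of the 10 genes exceeded 1, and their median was 1.79. On the swapped array labelled tumor 2 the median was 1.32, against -0.21 to 0.44 on the other 10 arrays. Of the 37 other macrophage markers, 32 exceeded 1 in tumor 3 (median 1.67), against at most 5 on any of the other 10 arrays. On the same array all 10 fibroblast markers exceeded 1 (median 3.42, against -0.97 to 0.83 on the other 10 arrays), as did all 6 skeletal muscle markers (median 3.98, against -0.15 to 2.26) and 7 of 8 neutrophil markers (median 1.98, against 0.05 to 1.32). The endothelial median was 1.17, against -0.55 to 0.45. Other lists lay within the range of the other 10 arrays there. Their medians were 1.12 for dendritic cells (others 0.02 to 1.33), 1.62 for B and plasma cells (0.09 to 3.45) and 0.90 for T cells (0.04 to 3.14). They were 0.92 for adipocytes (-1.47 to 1.54) and 0.99 for mammary epithelium (-0.29 to 1.09). The share of all genes above 1 on this array is not given here, so these counts and medians are set against the other arrays only. The part of these cell types in the levels of tumor 3 was not tested. Dendritic cell markers, some of which macrophages share, were called higher in 4 of 11 cases (Cd74, H2-Ab1, Itgax and Batf3), neutrophil markers in 3 of 8 and B and plasma cell markers in 3 of 7. The shares over all genes were 6.09% higher and 9.84% lower. In the fit with a dye term, 3 dendritic cell, 1 neutrophil and 3 B and plasma cell markers were called higher, against 2.81% of all genes. Above background in the tumor RNA on all 12 arrays were 6 of the 11, 3 of the 8 and 4 of the 7. T cell markers were called in 1 of 12 cases in each direction and had their highest median in tumor 7 (3.14), where the 10 macrophage genes had a median of 0.06.

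**Figure D4:**
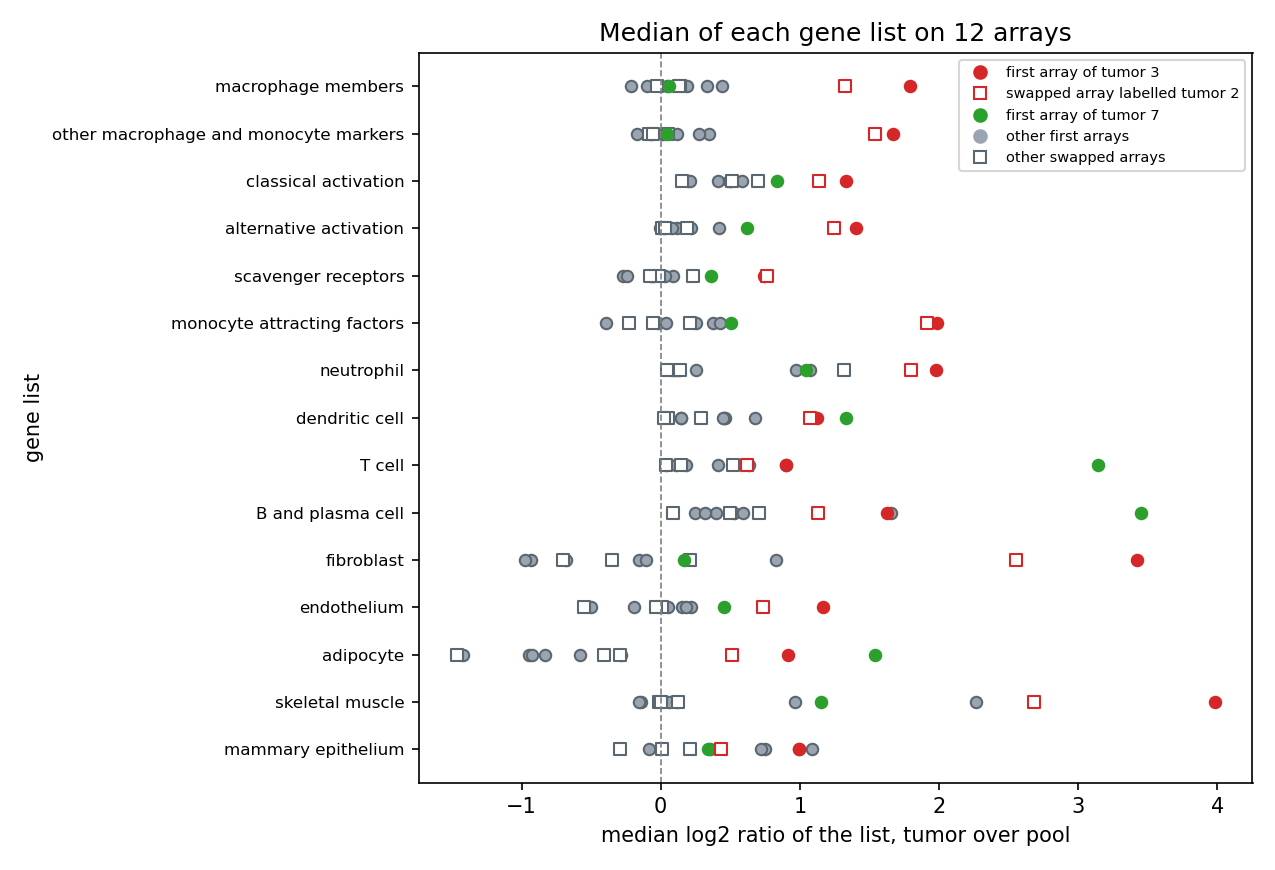
Median log2 ratio (horizontal axis) of each gene list on the 12 arrays; circles are first arrays and squares swapped arrays. The arrays drawn in red (first array of tumor 3, swapped array labelled tumor 2) lie right of the other 10 for the macrophage, fibroblast and skeletal muscle lists, and the first array of tumor 7 lies furthest right for T cells.

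The genes whose ratios most resembled each member over the 8 first arrays, out of 16486 genes with no missing value, are given with their Pearson r as a description. For Mrc1 they were Medag (0.996), Itga11 (0.993) and Cd109 (0.992). For Csf1r they were Lyl1 (0.988), Ticam2 (0.983) and Ccbe1 (0.983), and for Csf1 Arhgef10l (0.983), Tmem165 (0.981) and Fermt3 (0.979). For Cd68 the nearest named gene was the IgG receptor Fcgr3 (0.973), and for Cd14 they were Sectm1b (0.987), Rbms1 (0.982) and Ralgds (0.969). For Cd163 they were Cyp39a1 (0.985), Gjc1 (0.981) and Armc2 (0.980), for Chil3 Aldh1a3 (0.990), Cyp7b1 (0.982) and Prodh (0.979), and for Arg1 Patz1 (0.979) and Coq4 (0.978) beside an unnamed transcript. The points share the pooled RNA. Msr1 had a missing value and was not ranked, and Nos2 was near background.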

How the data were processed

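RNA of each tumor and of the pool was hybridised together on two-colour Agilent arrays, 12 arrays of 8 tumors. Per the labels' protocols, total RNA was amplified by T7 linear amplification and labelled through amino allyl nucleotides. Per the file headers, Agilent Feature Extraction 9.5.3.1 quantified the spots, and probe coordinates refer to mm7. The mean foreground and median background intensities were deposited without normalization. The log10 ratios and processed signals in the same files were deposited after Feature Extraction's own background and dye correction and served as an alternative. The deposited flags, other values of 0 or 1, mark spots above background, saturated or outlying. The authors' value table, deposited on the log2 scale, runs in the direction tumor over pool, as set against the scanner ratios. How it was normalized and centred is not stated, and it was used as an alternative.

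Intensities were corrected by normexp (offset 50) and loess within each array in limma 3.58.1 (R 4.3.3, with data.table version 1.17.8), with control spots at weight 0. Outlier spots were left out (0.47% to 13.7% of gene spots an array). The filter passed 30838 of 41174 gene probes, those above background in the tumor or the pool RNA in 4 or more tumors. Both arrays of a labelled tumor were averaged, and the mean of 8 tumors was tested against 0 (lmFit, eBayes, Benjamini-Hochberg over all kept probes). A gene is given by its brightest kept probe. Names came from RefSeq (GRCm38.p6) by accession (22951 probes), symbol (6659) or older symbol (3109), and 8455 kept the file's name. Exact permutation tests used Python 3.11.15 with numpy 2.4.6, scipy 1.17.1 and pandas 2.3.3. The number of arrays limits the precision. The fit was tested on simulated data.

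The genes, the lists and the rule for named genes were chosen with earlier results of these data known. The rule names all 10 genes with every probe, in each list up to 4 called genes a direction by size, and the 3 genes most like each of the 10, with Shc1 as a check of the labels. Alternatives covered background, normalization, filter, probe choice, dye, slide and each tumor left out. Some items are not reported here.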

Additional observations from a re-analysis of the deposited data

Results flagged for a closer look

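For each of the 14 probes of the 10 genes, the first arrays and the tumor averages were searched for 1 sample far from the others (28 groups of values). In 3 of the 28 groups a sample stood out, and chance alone gives about 1 in 20. Cd68 had a log2 ratio of 1.75 on the first array of tumor 3, against -0.02 to 0.71 in the other 7 tumors. The middle Msr1 probe (A_51_P404846) had 2.53 on the same array, against 0.03 to 0.79 in the other tumors with a value. Csf1 had a tumor value of -1.05 in tumor 6, against 0.05 to 0.67 in the other 7 tumors.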

How the results depend on the processing

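Chil3 kept its direction under all 26 alternatives (0.73 to 1.29) and was called in 23. It was not called where only 4 arrays entered: the swapped arrays alone (0.73, limma adjusted p = 0.0834) and the first arrays of tumors 1 to 4 (0.0826) and of tumors 5 to 8 (0.101) within their slides, where 0 of the 10 genes were called higher each time. The count of the 10 genes called higher was 2 under median centring and 2 without tumors 6 and 7. It was 1 whichever labelled tumor was left out, and the count called lower was never above 0. Leaving out a label does not remove a tumor whose swapped array stands under another label. Over all genes, 2192 were called higher and 900 lower under median centring, 382 and 458 within the slide of tumors 1 to 4, and 0 and 0 within that of tumors 5 to 8. With the slide as a random block the counts were 598 and 1283, with a dye term and the best-matching tumor as a block 574 and 711, without tumors 6 and 7 2095 and 3147, and the swapped arrays alone gave 809 lower. Leaving out 1 tumor gave 538 to 1624 higher and 1134 to 2573 lower. Signs changed only in genes that were not called. Arg1 was 0.065, Cd163 0.16 and Nos2 -0.13 under median centring. Csf1r was -0.020 as the mean of its probes, and Csf1 -0.087 on the first arrays of tumors 5 to 8. Mrc1 was -0.14 on those arrays, -0.014 on the first arrays alone, -0.13 without the 2 arrays that stood apart, and from -0.0027 to 0.35 with 1 tumor left out (-0.0021 without tumor 2, -0.0027 without tumor 3). Cd163 was 0.38 on the swapped arrays alone, 0.055 with a dye term and the labelled tumor as a block, 0.18 with the best-matching one, and from -0.31 to 0.068 with 1 tumor left out (0.042, 0.068 and 0.058 without tumors 1, 5 and 8). The causes were not tested. The alternatives without the 2 arrays and without tumors 6 and 7 were chosen after seeing the data. Nos2 and the most 5′ Csf1r probe were limited by signal near background.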
